A study of Mus musculus with 12 samples.

Results

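The 9 genes followed here encode integrin chains of leukocytes: the beta chains Itgb2, Itgb1 and Itgb7 and the alpha chains Itgal, Itgam, Itga4, Itga5, Itga6 and Itga1. They were chosen by name, and all 9 of 9 are on the array, each as 1 feature identified by its Entrez number, among 23279 genes measured. Expression was measured on 12 single-colour arrays, 6 labelled TRIM33 and 6 labelled WT, from monocytes that were sorted out of blood by the surface proteins CD11b and CD115 and by a high level of Ly6C, which marks the inflammatory subset. All mice were 6 to 8 weeks old and carry the strain label C57BL/6 LyzCre. LyzCre is a recombinase driven from a lysozyme locus, which is active in monocytes, macrophages and neutrophils, and the labels do not settle whether the WT mice carry it. In the TRIM33 mice the genotype label names the targeted gene, which encodes a chromatin-binding cofactor of SMAD proteins, and the labels say no more of the allele. The titles call 2 TRIM33 arrays and 2 WT arrays mixes, without saying what was mixed. Since no label ties each array to its own mouse, p-values here reflect array-to-array spread, some of which may be technical.

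Integrins are receptors of 1 alpha and 1 beta chain that bind cells to matrix and to other cells. On monocytes the beta2 integrins, LFA-1 (Itgal with Itgb2) and Mac-1 (Itgam with Itgb2), hold the cell on ICAM proteins of the vessel wall, and alpha4 paired with beta1 (VLA-4) or beta7 binds VCAM-1, MAdCAM-1 and fibronectin, with MAdCAM-1 lining vessels of the gut. The chains Itga5, Itga6 and Itga1 pair with beta1 to bind fibronectin, laminin and collagen. A surface integrin needs both chains, so the level of a transcript does not give the level of a receptor.

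The deposited values are log2 expression values, and differences below are on that log2 scale, tested with limma over all 23279 genes with Benjamini-Hochberg adjustment and a threshold of 0.05. The probes of different genes differ in brightness, so levels are compared across arrays within a gene and not between genes. Trim33, the targeted gene, fell by 0.79 in the TRIM33 arrays (SE 0.0741, adjusted p = 0.000149), and its values did not overlap, being at most 6.23 in TRIM33 and at least 6.81 in WT. The arrays fell into 2 sets of 6 by clustering over all features, each with 3 TRIM33 and 3 WT arrays. Arrays of the first, called the Xist set, had Xist, the noncoding RNA that coats the inactive X, at 9.01 to 10.2, and those of the second, called the Y set, at 3.36 to 3.64. The Y-linked gene Eif2s3y lay between 2.19 and 2.89 on Xist set arrays and between 8.09 and 8.47 on Y set arrays, and Kdm5d, also Y-linked, between 2.47 and 3.27 and between 5.73 and 6.77. The mean over 14 cell cycle genes was 9.45 to 9.53 on Xist set arrays and 4.86 to 5.90 on Y set arrays, and that over 7 progenitor genes was 8.28 to 8.61 and 5.06 to 5.72. Of the genes that mark the sorted cells, Ly6c2 was 12.2 to 12.4 on Xist set arrays and 12.3 to 12.5 on Y set arrays, Ccr2, a chemokine receptor, 11.4 to 11.6 and 11.7 to 11.9, and Csf1r, which encodes CD115, 9.73 to 10.1 and 10.9 to 11.1. All 4 mixes lie in the Y set. Clustering without the 9 integrin features moved 0 pairs of arrays between the sets. Genotype is balanced over the sets, so the set was kept as a block in the test of genotype.

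Promoters were read for the members that a RefSeq table of build GRCm38.p6 holds, which were 6 of 9; Itgal, Itgb2 and Itga6 had no entry there. The 3 shown are those of Itgam, whose protein CD11b was a sorted antigen, of Itgb1, and of Itga1, which ran the opposite way between the array sets. Capitals mark GAGGAA, the core letters of sites of the myeloid factor PU.1, CAGAC, the letters of a SMAD element, and GGGCGG, a GC box, each searched on both strands, with no marked stretch overlapping another.
Itgam promoter, chr7:128062390-128062689, plus strand: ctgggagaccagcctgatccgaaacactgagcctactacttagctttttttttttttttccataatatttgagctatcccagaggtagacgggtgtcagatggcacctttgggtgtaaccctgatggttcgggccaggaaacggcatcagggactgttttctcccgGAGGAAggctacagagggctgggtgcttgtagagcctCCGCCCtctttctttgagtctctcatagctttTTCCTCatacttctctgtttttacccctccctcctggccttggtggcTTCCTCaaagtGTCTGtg
Itgb1 promoter, chr8:128685404-128685703, plus strand: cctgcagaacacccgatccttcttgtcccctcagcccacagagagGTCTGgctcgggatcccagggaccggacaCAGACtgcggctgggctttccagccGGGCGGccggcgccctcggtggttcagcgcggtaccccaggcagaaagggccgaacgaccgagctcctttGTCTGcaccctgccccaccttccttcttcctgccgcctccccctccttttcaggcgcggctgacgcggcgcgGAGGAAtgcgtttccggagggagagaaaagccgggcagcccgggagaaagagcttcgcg
Itga1 promoter, chr13:115101915-115102214, minus strand: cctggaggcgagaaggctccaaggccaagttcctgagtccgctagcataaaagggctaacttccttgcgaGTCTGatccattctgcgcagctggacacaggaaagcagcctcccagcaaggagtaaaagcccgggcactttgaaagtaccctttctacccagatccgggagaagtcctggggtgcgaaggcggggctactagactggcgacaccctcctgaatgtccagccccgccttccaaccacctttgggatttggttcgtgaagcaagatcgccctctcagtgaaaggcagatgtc
Each runs from 250 bases before the start site to 50 after it. Itgam holds GAGGAA letters in 3 places, at positions -84, -15 and 33 from the start site, Itgb1 holds them once, at -9, and Itga1 has none in this window. Of the 3 promoters not shown, Itga5 holds them once, at -127, and Itgb7 once, at 3, and Itga4 has none. GAGGAA was found in 4 of the 6 member promoters and in 28.3% of all 27025 promoters of the table, CAGAC in 6 of 6 and 49.7%, and GGGCGG in 4 of 6 and 35.9%. These matches describe the letters only.

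The beta2 chains did not differ between genotypes beyond the spread of the arrays. Itgam, the alpha chain of Mac-1, read 9.76, 9.51 and 9.88 on the TRIM33 arrays of the Xist set, against 9.67, 9.40 and 9.71 on its WT arrays. In the Y set it read 10.41, 10.68 and 10.44 on TRIM33 arrays, against 10.48, 10.48 and 10.44 on WT arrays. The genotypes overlapped in both sets, while every Y set array lay above every Xist set array. The difference TRIM33 minus WT was 0.08 (SE 0.0915, 95% interval -0.11 to 0.28, limma adjusted p = 0.964). CD11b, the protein that Itgam encodes, was used to sort the cells, and the part of the gate in the transcript level was not tested.

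Itgal, the alpha chain of LFA-1, read 8.87, 8.77 and 8.67 on TRIM33 arrays of the Xist set, against 8.86, 8.69 and 8.95 on WT arrays. On the Y set it read 10.11, 9.80 and 10.08 on TRIM33 arrays, against 10.04, 10.09 and 10.17 on WT arrays. The lowest Y set array, TRIM33 replicate 2, still lay 0.85 above the highest Xist set array, the widest gap between the sets among the 9 chains. By genotype Itgal differed by -0.09 (SE 0.0847, 95% interval -0.27 to 0.09, limma adjusted p = 0.964).

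Itgb2, the beta chain shared by LFA-1 and Mac-1, read 10.06, 9.62 and 9.94 on TRIM33 arrays of the Xist set, against 9.98, 9.86 and 10.02 on WT arrays. Its Y set values were 10.42, 10.71 and 10.75 on TRIM33 arrays, against 10.14, 10.78 and 10.71 on WT arrays. Here the sets nearly met: WT replicate 4, the lowest of the Y set, lay 0.08 above the highest Xist set array. The genotype difference was 0.0039 (SE 0.121, 95% interval -0.25 to 0.26, limma adjusted p = 0.999).

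**Figure D1:**
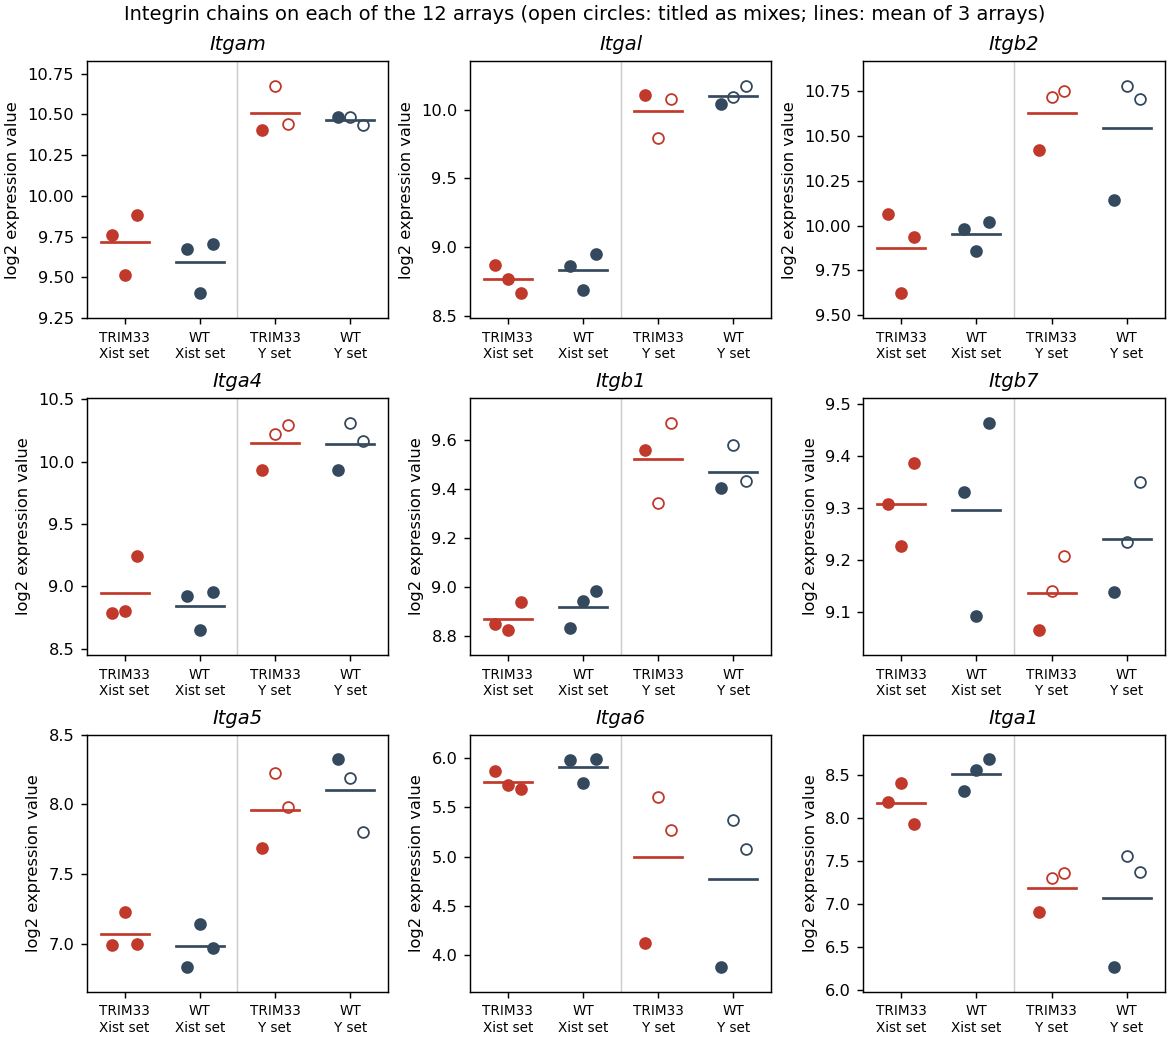
Log2 expression value (vertical axis, a scale per gene) of the 9 integrin chains on each of the 12 arrays, by genotype and array set; points are arrays, open where titled as mixes, and lines are means of 3 arrays. TRIM33 and WT arrays overlap in every panel and set, while 8 chains separate the Xist set from the Y set and Itgb7 does not.

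The alpha4 chain and its partners beta1 and beta7 also showed no genotype difference that passed. Itga4 read 8.79, 8.80 and 9.25 on TRIM33 arrays of the Xist set, against 8.92, 8.65 and 8.95 on WT arrays. In the Y set it read 9.93, 10.23 and 10.29 on TRIM33 arrays, against 9.93, 10.31 and 10.17 on WT arrays. The genotypes overlapped and the sets lay 0.69 apart at their nearest arrays. TRIM33 minus WT was 0.06 (SE 0.111, 95% interval -0.18 to 0.29, limma adjusted p = 0.982).

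Itgb1, the beta chain of the VLA integrins, had the lowest spread within the Xist set, at 8.85, 8.82 and 8.94 on TRIM33 arrays, against 8.83, 8.94 and 8.98 on WT arrays. In the Y set it read 9.56, 9.34 and 9.67 on TRIM33 arrays, against 9.40, 9.58 and 9.43 on WT arrays. Again the genotypes overlapped and the sets did not. The genotype difference was 0.0020 (SE 0.0814, 95% interval -0.17 to 0.18, limma adjusted p = 0.999).

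Itgb7, which joins Itga4 in the receptor for MAdCAM-1, was the chain whose sets overlapped. It read 9.31, 9.23 and 9.39 on TRIM33 arrays of the Xist set, against 9.33, 9.09 and 9.46 on WT arrays, and in the Y set 9.07, 9.14 and 9.21 on TRIM33 arrays, against 9.14, 9.23 and 9.35 on WT arrays. All 12 values thus lay within 9.07 to 9.46. By genotype it differed by -0.05 (SE 0.0848, 95% interval -0.23 to 0.14, limma adjusted p = 0.982).

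Among the alpha chains for matrix, Itga5, the fibronectin receptor chain, read 6.99, 7.23 and 6.99 on TRIM33 arrays of the Xist set, against 6.83, 7.14 and 6.97 on WT arrays. In the Y set it read 7.69, 8.22 and 7.98 on TRIM33 arrays, against 8.32, 8.19 and 7.80 on WT arrays. The genotypes overlapped and TRIM33 minus WT was -0.03 (SE 0.118, 95% interval -0.28 to 0.23, limma adjusted p = 0.994).

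Itga6, the laminin receptor chain, was tight in the Xist set, with 5.87, 5.73 and 5.69 on TRIM33 arrays, against 5.98, 5.75 and 5.99 on WT arrays. The Y set was wide, with 4.12, 5.61 and 5.27 on TRIM33 arrays, against 3.88, 5.37 and 5.08 on WT arrays. TRIM33 replicate 1 and WT replicate 4, the Y set arrays that are not mixes, were the 2 lowest of all 12 arrays. The genotype difference was 0.04 with a wide interval (SE 0.255, 95% interval -0.51 to 0.58, limma adjusted p = 0.996).

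Itga1, the collagen receptor chain, read 8.18, 8.40 and 7.93 on TRIM33 arrays of the Xist set, against 8.31, 8.55 and 8.68 on WT arrays. Its Y set values were 6.90, 7.30 and 7.36 on TRIM33 arrays, against 6.27, 7.56 and 7.37 on WT arrays. The same 2 arrays were lowest here as for Itga6, and the genotypes overlapped by 1 array in the Xist set. TRIM33 minus WT was -0.11 (SE 0.194, 95% interval -0.53 to 0.30, limma adjusted p = 0.981). It was -0.34 in the Xist set (SE 0.161, unadjusted p = 0.0597 by limma, adjusted p = 0.962) and 0.12 in the Y set (SE 0.316), and the interaction of genotype and set for Itga1 was -0.46 (SE 0.383, limma adjusted p = 0.996). Single arrays moved this difference in both directions. It was -0.03 without WT replicate 5 and also without TRIM33 replicate 6. Without WT replicate 4 it was -0.32, with an unadjusted limma p of 0.0187 and an adjusted p of 0.808.

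Over the 9 chains limma called 0, with 0 at an unadjusted p under 0.05, whereas 9 of all 23279 genes were called (0.0387%) and 5.28% had an unadjusted p under 0.05. With genotype alone in the model, without the set, the background was 0.0215% and 0 chains were called. The differences ran upward in 5 chains and downward in 4, with a median of 0.0020 against -0.01 over all genes, and the median absolute difference was 0.05 against 0.08 over all genes. For the chains other than Itga6 and Itga1 the 95% intervals reached no further than -0.28 and 0.29. The interaction of genotype and array set passed for 0 chains, against 0.00430% of all genes, which is the single gene Stfa2l1, named after its values were seen, and 0 chains had an unadjusted interaction p under 0.05, against 4.21% of genes. Within the sets, 3 TRIM33 arrays against 3 WT arrays, limma called 0 chains in the Xist set, against 0.0129% of genes, and 0 in the Y set, against 0.0344%. There 0 chains were free of overlap between the genotypes in the Xist set, against 10.3% of genes, and 0 in the Y set, against 10.0%. A p that misses the threshold does not show that the genotypes are alike, and the intervals give the differences that these arrays leave possible.

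**Figure D2:**
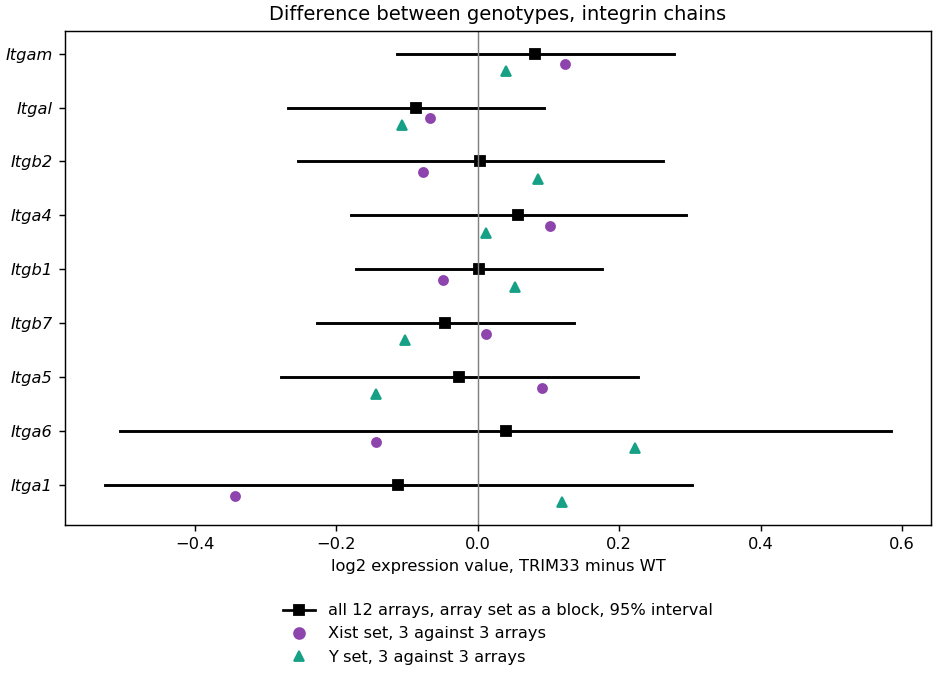
Difference in log2 expression value, TRIM33 minus WT (horizontal axis), for the 9 integrin chains: squares with 95% intervals are all 12 arrays with the array set as a block, circles the Xist set and triangles the Y set (3 against 3 arrays each). Every interval holds 0, and the intervals of Itga6 and Itga1 are the widest.

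The array sets, which cut across genotype, separated 8 of the 9 chains, with 6 lower and 2 higher in the Xist set. These values are a description without a test, since the sets were found from all features. The difference, Xist set minus Y set, was -1.25 for Itga4, or 2.38-fold lower (8.89 ± 0.204 in the Xist set and 10.14 ± 0.171 in the Y set, SD, n = 6 each), and -1.24 for Itgal, or 2.37-fold lower (8.80 ± 0.113 and 10.05 ± 0.130, SD, n = 6 each). It was -1.01 for Itga5, -0.83 for Itgam, -0.67 for Itgb2 and -0.60 for Itgb1, which is 2.01-fold for Itga5 and 1.52-fold for Itgb1. Itga1 was higher in the Xist set by 1.21 (8.34 ± 0.268 and 7.13 ± 0.473, SD, n = 6 each) and Itga6 by 0.94 (5.83 ± 0.132 and 4.89 ± 0.712, SD, n = 6 each). The Itga6 sets lay only 0.08 apart at their nearest arrays. The Xist set holds no mixes, so the size of both differences depends on the share of mixes in the Y set. Itga6 had a mean of 5.33 on the 4 mixes and read 4.12 and 3.88 on the 2 other Y set arrays. For Itga1 the mean was 7.40 on the mixes, and the other arrays read 6.90 and 6.27. Itgb7 differed by 0.11, less than the SD of 0.129 among its 6 Xist set arrays. The alpha4 chain thus shared its direction between the sets with beta1, but equally with Itgal, Itga5, Itgam and Itgb2, while beta7 overlapped. In both beta families the alpha chains Itgal and Itga4 differed by more than their beta chains did.

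Each of these set differences had the same sign in both genotypes. For the 8 chains without overlap this follows from the separation of the sets and adds nothing to it. Among TRIM33 arrays and WT arrays in turn, the difference was -1.21 and -1.30 for Itga4 and -1.22 and -1.27 for Itgal. For Itga1 it was 0.98 and 1.45, and for Itga6 0.76 and 1.13. Among all genes the sets did not overlap for 14.0%, with 6.59% lower and 7.45% higher in the Xist set, and for 26.5% of the genes whose mean lay at or above the median of all genes. Along with sex-linked, cell cycle and progenitor genes, other lists moved with the sets. On Xist set arrays the mean over 9 Ly6C-low monocyte markers other than Itgal was 6.12 to 6.46, against 7.27 to 8.30 on Y set arrays, and over 8 Ly6C-high markers other than Itgam it was 10.5 to 10.7, against 10.9 to 11.2. Over 11 neutrophil markers it was 6.45 to 6.99 on Xist set arrays, against 5.51 to 6.43 on Y set arrays, over 6 platelet markers 4.25 to 4.45, against 5.14 to 6.40, and over 3 erythroid markers 3.16 to 3.78, against 7.52 to 8.61. T cell markers, of a lineage that also expresses Itgal, Itga4 and Itgb7, had a mean over 6 genes of 3.22 to 3.49 on Xist set arrays, against 3.81 to 4.50 on Y set arrays. The Xist set means of this list lay below the array medians of 4.16 to 4.25, and 3 of its 6 genes separated the sets. The mean over 8 dendritic cell markers was 4.79 to 5.26, against 5.29 to 5.76, and over 6 eosinophil and basophil markers 3.89 to 4.34, against 3.20 to 3.41. The means over B cell and natural killer cell markers overlapped between the sets. These means do not stand for every gene of a list. Of the 11 neutrophil markers, 5 were higher and 1, Csf3r (-1.02), lower in the Xist set without overlap. Of the 7 progenitor genes, 5 were higher and 1, Flt3 (-1.48), lower. Among the Ly6C-low markers Spn ran against the mean, at 0.47 with overlap. Of the 6 platelet markers, 3 were lower in the Xist set without overlap, and Itgb3 ran against the mean, at 0.22. That list includes the integrin chains Itga2b and Itgb3. Of the 3 erythroid markers, 2 were lower in the Xist set without overlap, and Klf1 ran against the mean, at 0.14. Of the 6 eosinophil and basophil markers, 2 separated the sets, Prg2 (2.65) and Mcpt8 (1.39). The part of sex, cycling, maturity and admixed cells in the integrin differences was not tested. In bulk samples fewer cells of a type and less RNA per cell cannot be told apart.

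Within the Y set the preparation named in the titles went with some chains. Itga6 read 5.61, 5.27, 5.37 and 5.08 on the 4 mixes, against 4.12 and 3.88 on the 2 other arrays, and Itga1 read 7.30, 7.36, 7.56 and 7.37 on the mixes, against 6.90 and 6.27. The Itga6 values of the 2 other arrays lay below the array medians over all features, which ran from 4.16 to 4.25. For 5 of the 9 chains, Itgb2, Itga4, Itgb7, Itga6 and Itga1, every mix lay above both other arrays. Over all genes, mixes and other arrays did not overlap for 20.4%, counted in either direction, and the share with the mixes higher was not counted. Every mix lay above both other arrays for Itgb7 by less than 0.01. In a limma fit over all genes within the Y set, added after these values were seen, mixes minus other arrays was 1.33 for Itga6 (SE 0.149, 95% interval 0.98 to 1.68, adjusted p = 0.0588), 0.81 for Itga1 (SE 0.185, adjusted p = 0.179), 0.46 for Itgb2 (SE 0.123, adjusted p = 0.237) and 0.32 for Itga4 (SE 0.116, adjusted p = 0.371). None of the 9 passed, nor did any other gene (0%), while 4 chains had an unadjusted p under 0.05, against 11.1% of genes. The call for Itga6 turned on the fit: it passed with an intensity trend and robust prior (limma adjusted p = 0.0348), without genotype in the model (0.0407) and after a further quantile normalization (0.0494). Itgam differed by 0.06 (95% interval -0.23 to 0.36), Itgal by -0.04 (-0.36 to 0.28) and Itgb1 by 0.02 (-0.30 to 0.35). Erythroid markers read 8.27 to 8.61 on the mixes and 7.52 to 7.77 on the other arrays, and platelet markers 5.75 to 6.40 and 5.14 to 5.68. The cell cycle genes also lay higher on the mixes, at 5.09 to 5.90, against 4.86 to 4.97 on the other arrays. The 6 eosinophil and basophil markers lay slightly lower, at 3.20 to 3.34, against 3.36 to 3.41, all below the array medians of 4.16 to 4.25. The part of these lists in the difference was not tested.

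**Figure D3:**
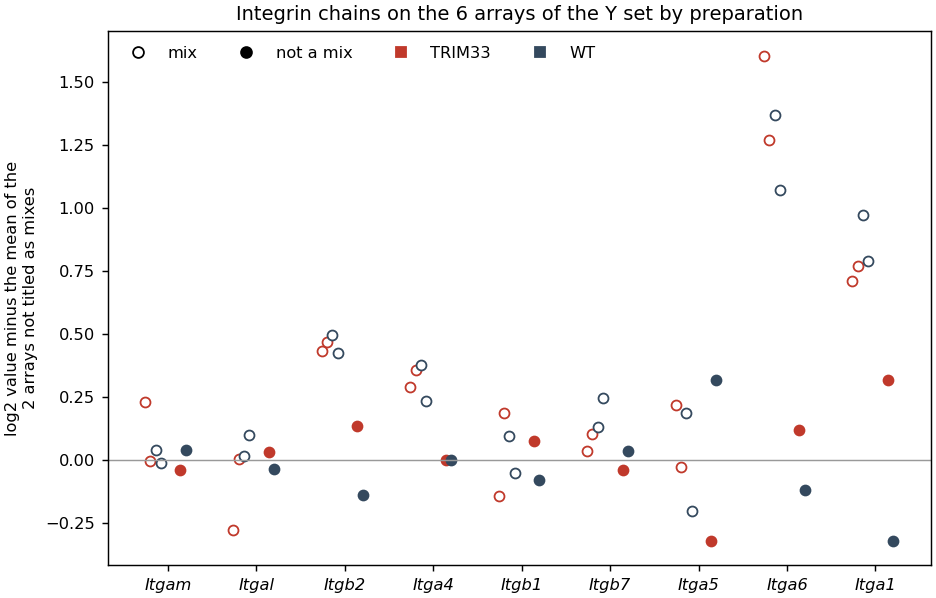
The 6 arrays of the Y set: log2 expression value of each integrin chain minus the mean of the 2 arrays not titled as mixes (vertical axis), with mixes as open circles, other arrays filled, and colour for genotype. The 4 mixes stand 1.07 to 1.61 above that mean for Itga6 and 0.71 to 0.97 for Itga1, and scatter around it for Itgam, Itgal, Itgb1 and Itga5.

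The other 17 integrin chains of the mouse were measured too, and limma called 0 of them between genotypes, with 1 at an unadjusted p under 0.05. That was Itgb3, the platelet and vitronectin receptor chain, at -0.30 (SE 0.116, adjusted p = 0.851), followed by Itgb5, a beta chain of vitronectin receptors, at -0.27 (SE 0.138, adjusted p = 0.937). Their median difference was -0.03, against -0.01 over all genes. Of the 26 chains in all, 12 separated the sets, and 8 of these are leukocyte chains given above. Among the other 17, 1 was higher and 3 were lower in the Xist set without overlap. The share was 14.0% of all genes and 26.5% of those at or above the median level. A count of 4 of 17 lies between these shares and so is no result about those chains as a group. The 4 outside the 9 leukocyte chains were Itgb5 (mean 6.56 in the Xist set and 8.10 in the Y set), its alpha partner Itgav (6.91 and 7.89), Itgax, which encodes CD11c (4.15 and 4.86), and Itgb8 (3.36 and 3.05). For Itgax the sets all but touched, with the highest Xist set array at 4.464 and the lowest Y set array at 4.468. The means of Itgb8 in both sets and of Itgax in the Xist set lay below the array medians of 4.16 to 4.25. Itga8 was higher by 0.82 in the Xist set and Itgb3 by 0.22, with overlap.

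**Figure D4:**
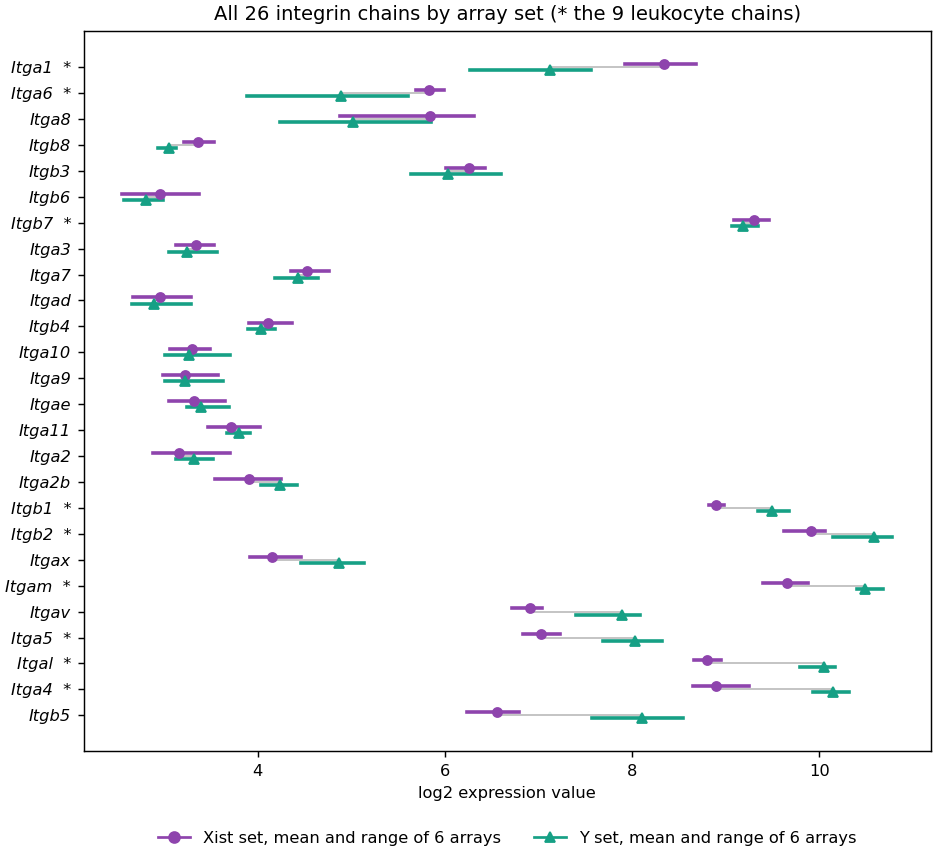
Log2 expression value (horizontal axis) of all 26 integrin chains, with the mean and range of the 6 Xist set arrays (circles, upper line of each row) and of the 6 Y set arrays (triangles, lower line), ordered by the difference between them; stars mark the 9 leukocyte chains. The 6 leukocyte chains from Itgb1 to Itga4 lie to the left in the Xist set, while Itga1 and Itga6 lie to the right.

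Of the genes that switch integrins on or tie them to actin, limma called 0 of 36 measured by genotype, with 1 at an unadjusted p under 0.05 and a median of -0.03. The smallest p-values were those of Ptk2b, the adhesion kinase Pyk2, at -0.23 (SE 0.0867, adjusted p = 0.851), and of the focal adhesion adaptor Pxn, at -0.17 (SE 0.0870, adjusted p = 0.937). Between the array sets 11 of the 36 were lower and 3 higher in the Xist set without overlap, where the shares over all genes were 6.59% and 7.45%, and 26.5% in either direction among genes at or above the median level. Among the genes lower in the Xist set the largest differences were those of Fyb, an adaptor of the inside-out pathway (9.27 in the Xist set and 10.55 in the Y set), the Src family kinase Fgr (9.16 and 10.25) and Ptk2b (7.87 and 8.87). Higher in the Xist set were the parvin Parvg (8.68 and 7.40) and Itgb1bp1, an inhibitor of beta1 activation (8.01 and 7.49), both without overlap, and the actin crosslinker Actn4 (8.32 and 7.89), with overlap.

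Of 18 integrin ligands limma called 0 by genotype, with 1 at an unadjusted p under 0.05: the laminin chain Lamc1 at 0.61 (SE 0.263, adjusted p = 0.934), ahead of the collagen chain Col1a1 at 0.15 (SE 0.0934). By array set 2 of the 18 were lower and 1 higher in the Xist set without overlap, a count near the 14.0% of all genes and so no result about the ligands as a group. They were F11r, which encodes the LFA-1 ligand JAM-A (4.58 in the Xist set and 7.03 in the Y set), Icam1, the ligand of LFA-1 and Mac-1 (6.08 and 7.61), and Jam3, a ligand of Mac-1 (4.26 and 3.53). Lamc1, at -0.47, and Thy1 and Icam2, at 0.48 and 0.24, overlapped between the sets. Of 20 selectins and membrane partners limma called 0 by genotype and 0 had an unadjusted p under 0.05. The tetraspanin Cd63 had the smallest p, at 0.30 (SE 0.145), followed by Selp, at 0.12 (SE 0.107). Cd63 also had the widest set difference of the list, at 6.40 in the Xist set and 4.59 in the Y set. Gcnt1, which builds selectin ligands, and Sele, the gene of E-selectin, were higher in the Xist set too, by 0.73 and 0.63. The mean of Sele in the Y set was 3.95, below the array medians of 4.16 to 4.25. The hyaluronan receptor Cd44 (7.65 and 8.38) and the integrin-associated protein Cd47 (10.27 and 10.77) were lower in the Xist set without overlap. The urokinase receptor gene Plaur differed by -0.52 with overlap. In this list 3 of the 20 were lower and 4 higher in the Xist set without overlap. The shares over all genes were 6.59% and 7.45%, and 26.5% in either direction among genes at or above the median level. The L-selectin gene was not analysed here.

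Genes with the most similar course over the 12 arrays were ranked by the root mean square difference of log2 values after each gene's own mean was subtracted, for the 7 chains with a range above 1. The step between the array sets is part of each of these profiles. Itgb2 was followed most closely by Insr (0.0894), Synj1 (0.111) and Trio (0.123), and Itgam by Cers6 (0.0939), Bin2 (0.102) and N4bp1 (0.103). Itgal was followed by Rnf145 (0.111), Cyp27a1 and Niban1 (0.126 each), Itga4 by Irgm1 (0.130), B4galt5 (0.141) and Itpr2 (0.152), and Itga5 by Fam102b (0.110), Smox (0.146) and Dgkh (0.171). For Itga6 the nearest were Hus1 (0.209), Siglecg (0.238) and Fnta (0.251), and for Itga1 Cep20 (0.186), Gins3 (0.223) and Poc5 (0.246). No chain was among the 3 genes nearest to another. The nearest pair of chains was Itgb2 and Itgb1, at 0.189, and Itgal and Itga4 stood 0.216 apart.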

How the data were processed

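The 12 arrays were grouped by their genotype labels. The authors deposited log2 expression values for features at gene level. RMA and Partek are named per the submitters' processing notes, and no source used here gives versions, the chip definition or a batch correction. RMA equalises distributions between arrays and compresses differences between dim genes. Per the labels' protocols, 900 pg of RNA was amplified per sample, which adds spread. The labels' treatment text describes a T cell sort, while the source names and series design give monocytes, which was followed. Arrays carry no counting depth, so the number of arrays limits the precision.

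Of 24479 features, 23281 carried 1 symbol, 0 several and 1198 none. Symbols were checked by Entrez number in a RefSeq table of assembly GRCm38.p6, which changed 0. For 2 symbols with more than 1 feature the brighter was kept, leaving 23279 genes. No low-value filter was applied. lmFit and eBayes of limma 3.58.1 (R 4.3.3) were run with genotype and array set, with a Benjamini-Hochberg threshold of 0.05 over all genes, and were tested on simulated data. Array sets came from hierarchical clustering (average linkage, distance 1 minus Pearson's r), blind to genotype. Summaries and figures used Python 3.11.15 and matplotlib 3.10.9.

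Named genes were the 9 chains, Trim33, markers of the sets and sorted cells, the 2 members of each list with the smallest p, the 3 with the largest set differences each way, and the 3 nearest profiles. The members, the array set block, the lists and the rule were chosen with earlier results of these data known. Not analysed here were 4 of 40 listed activation genes, 2 of 20 ligands and 1 of 21 selectins and partners. Alternatives covered the array set, normalization, filter, variance model, weights, preparation, a replicate block on the mix number, the threshold, unnamed features and each array left out.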

Additional observations from a re-analysis of the deposited data

Results flagged for a closer look

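Itga6 was set apart by a single array among the TRIM33 samples: TRIM33 replicate 1 read 4.12, while the other 5 TRIM33 arrays read 5.27 to 5.87, so that the gap to the nearest array made up 0.658 of the whole range. It was the only such case among 20 groups of 6 arrays examined (the 9 chains and Trim33 in each genotype). Each group pools both array sets, and for most chains the step between the sets makes up much of the range. A single array can then hardly stand out, so the count of cases is not set against a chance rate. In the WT samples the lowest array was WT replicate 4, at 3.88, with the next at 5.08. Both are Y set arrays that are not titled as mixes, and both values lay below the array medians of 4.16 to 4.25 over all features.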

How the results depend on the processing

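Over 225 alternative values of the 9 chains, 0 passed the threshold. Leaving out the array set, the preparation covariate, the filter, the variance models, the threshold and the unnamed features leave each difference unchanged by construction. Those settings could not turn a sign and bear only on the p-values. Of the 225 values, 32 had the opposite sign to the value reported. Within the Xist set alone these were -0.0779 for Itgb2, -0.0486 for Itgb1, 0.0116 for Itgb7, 0.0914 for Itga5 and -0.14 for Itga6, and within the Y set alone 0.12 for Itga1. After a further quantile normalization they were -0.0423 for Itgb2 and -0.0208 for Itgb1, with array weights -0.0105 for Itgb2 and 0.0085 for Itga5, and in the 8 arrays not titled as mixes -0.0485 for Itga6. With each array left out in turn the differences ran from -0.0938 to 0.0691 for Itgb2, -0.0363 to 0.0370 for Itgb1, -0.0802 to 0.0483 for Itga5, -0.18 to 0.21 for Itga6, -0.0143 to 0.111 for Itga4 and -0.315 to -0.0283 for Itga1. A replicate block on the mix number over the 4 mixes, with numbers that the labels do not say pair the samples, called 10 genes and 0 chains and gave -0.0089 for Itgb2 and 0.10 for Itga5; with 2 pairs no check of the pairing was made. The 9 genes called by genotype were 5 without the array set, 3 within the Xist set, and 9 to 15 with each array left out, where 15 came without TRIM33 replicate 4. The interaction called 0 to 2 genes with an array left out: 2 when TRIM33 replicate 3 was left out, and 0 for TRIM33 replicates 4 and 6 and for WT replicates 2, 3 and 6. Counts of 0 for the chains and the 4 adhesion lists, and of 8 chains that separate the sets, were the same under the alternatives run for them. Leaving arrays out cannot make separated sets overlap. For the count of 8, only the further quantile normalization could therefore have lowered it. For mixes against the other arrays of the Y set, 71 genes and 1 chain passed with an intensity trend and robust prior, 41 and 1 without genotype in the model, and 14 and 1 after a further quantile normalization, in each case Itga6 (adjusted p = 0.0348, 0.0407 and 0.0494), against 0 to 7 genes and 0 chains with a Y set array left out: 7 without TRIM33 replicate 2, 2 without TRIM33 replicate 1 and 1 without WT replicate 6. The causes were not tested.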
